A study of Mus musculus with 4 samples.

Results

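The genes described here are 45 genes of DNA replication and deoxynucleotide supply, chosen by name from a fixed list and all found among the 54532 genes of the deposited count table. The study compared sorted periosteal cells of mice lacking Sfrp4, a secreted protein that binds Wnt ligands, with those of wild-type (WT) mice by bulk RNA sequencing. Both genotypes carried CtskCre, a Cre recombinase driven by the cathepsin K gene, and mTmG, a reporter that switches to GFP where Cre has acted; the Sfrp4-/- mice were CtskCre;mTmG;Sfrp4-/- and the WT mice CtskCre;mTmG;wt. Periosteum, the cell layer on the outer face of bone, was taken from long bones at 4 weeks of age, and GFP-positive, CD200-positive cells were sorted after exclusion of cells with CD105, 6C3, Thy1.2 or the lineage antigens CD45, CD31 and Ter119; the study calls them periosteal stem cells. Each genotype had 2 libraries, and each library held the pooled cells of 3 mice, so p-values measure the spread between pools and not between animals. Ctsk also marks osteoclasts, so the lineage label is not confined to skeletal progenitors.

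Before a cell divides it copies its DNA in S phase. In G1 the origin recognition complex, Cdc6 and Cdt1 load the MCM helicase on DNA; Cdc45 and GINS then turn the helicase on, polymerases with their primase copy the strands, and the PCNA clamp, loaded by RFC, holds the polymerases in place. RPA covers single-stranded DNA, ligase seals the lagging strand, CAF-1 places histones on the new DNA and Dnmt1 copies its methylation, while ribonucleotide reductase, thymidylate synthase, thymidine kinase and dUTPase feed and clean the deoxynucleotide pool. Many of these genes are known targets of E2F transcription factors, and their RNA is known to be most abundant in cycling cells, a small share of most adult tissues and a large share of blood precursors in marrow.

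The libraries held 17119332 to 18750003 counts. Genes with a count numbered 17359 and 20080 in Sfrp4-/- libraries and 16333 and 15400 in WT libraries. Sfrp4 was at 11.4 and 12.1 CPM (counts scaled to the library total and to composition) in the Sfrp4-/- libraries and at 90.8 and 108 CPM in the WT libraries, and it did not pass the test over all genes (edgeR quasi-likelihood test, Benjamini-Hochberg adjusted p = 0.133). All 10 genes of a periosteal marker list were detected, Ctsk among them at 1461 and 1684 CPM in Sfrp4-/- and 1055 and 2050 CPM in WT libraries. Of the 10, 7 had a log2 fold change below 0 (median -0.39), 2 had both Sfrp4-/- libraries below both WT libraries and 0 had them above. Of all genes tested, 12.6% had them below and 15.0% above. Their summed level was 266000 and 139100 CPM in Sfrp4-/- libraries and 370100 and 219400 CPM in WT libraries, the opposite direction to that of the replication genes, and its part in their levels was not tested. Of the antigens gated out, Ptprc (CD45) was at 9.45 and 6.81 CPM in Sfrp4-/- and 5.87 and 8.51 CPM in WT libraries, and Thy1 had 0 counts in all 4. Cd200, the antigen selected for, was at 442 and 465 CPM in Sfrp4-/- and 486 and 669 CPM in WT libraries.

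To show what these genes share in sequence, their promoters were searched in the RefSeq promoter table (GRCm38.p6, the assembly that mm10 denotes), which holds 250 bases before and 50 bases after each start. It held 45 promoters of 37 of the genes. The E2F consensus was searched as TTTCCCGC, TTTCGCGC, TTTGCCGC and TTTGGCGC on both strands, and overlapping matches were allowed. These letters were found in 15 of the 45 promoters (33.3%), 1 each of 15 genes, against 2.26% of all 32851 promoters and 3.87% of the 12953 promoters of genes tested here. The CCAAT box, searched as CCAAT on both strands, was found in 27 of the 45 promoters (60%), against 37.4% of all promoters and 37.6% of those of tested genes. Below are the promoters of Mcm5, Mcm6 and Mcm7, the MCM genes whose genotypes did not overlap, with E2F letters in capitals, and that of Rrm2, the most abundant gene of nucleotide supply per length, which held no E2F match and has its CCAAT box in capitals. In Mcm5 the capital run is 2 overlapping matches on opposite strands, and the first capital run of Mcm6 likewise. For Mcm5 and Mcm6 the end of the window was not found in their GENCODE transcripts, while for Mcm7 and Rrm2 it was. The Mcm5 window ends at 75109558, before the gene start of 75109569 in the deposited annotation.
Mcm5 (chr8:75109259-75109558, plus strand): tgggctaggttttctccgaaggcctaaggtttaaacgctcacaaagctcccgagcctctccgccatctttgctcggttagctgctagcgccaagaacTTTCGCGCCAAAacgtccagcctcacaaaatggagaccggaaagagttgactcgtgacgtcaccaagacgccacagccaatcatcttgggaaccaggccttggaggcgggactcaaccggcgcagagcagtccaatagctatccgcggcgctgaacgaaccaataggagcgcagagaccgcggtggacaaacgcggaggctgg
Mcm6 (chr1:128359656-128359955, minus strand): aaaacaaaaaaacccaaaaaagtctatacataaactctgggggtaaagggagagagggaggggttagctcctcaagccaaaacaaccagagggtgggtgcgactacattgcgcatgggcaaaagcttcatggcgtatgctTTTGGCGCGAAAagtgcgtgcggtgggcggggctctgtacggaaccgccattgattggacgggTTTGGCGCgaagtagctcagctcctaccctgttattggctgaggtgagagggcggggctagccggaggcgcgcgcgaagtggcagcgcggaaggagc
Mcm7 (chr5:138171834-138172133, minus strand): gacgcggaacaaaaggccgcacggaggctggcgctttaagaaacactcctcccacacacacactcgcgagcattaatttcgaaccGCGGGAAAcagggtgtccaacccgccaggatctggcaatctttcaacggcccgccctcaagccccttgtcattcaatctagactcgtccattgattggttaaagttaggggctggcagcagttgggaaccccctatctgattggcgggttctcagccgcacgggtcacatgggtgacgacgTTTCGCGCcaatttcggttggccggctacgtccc
Rrm2 (chr12:24708004-24708303, plus strand): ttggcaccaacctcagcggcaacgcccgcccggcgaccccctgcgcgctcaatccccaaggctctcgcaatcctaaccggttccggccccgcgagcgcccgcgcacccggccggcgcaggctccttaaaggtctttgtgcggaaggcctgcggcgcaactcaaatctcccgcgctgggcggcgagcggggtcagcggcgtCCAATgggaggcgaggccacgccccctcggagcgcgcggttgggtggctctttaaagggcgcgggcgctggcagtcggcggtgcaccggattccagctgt
A match describes letters and not a site bound by a factor. The promoters of Tk1 and Prim1 held no E2F letters either. The median log2 fold change, Sfrp4-/- over WT as throughout, was 0.53 in the 15 genes with E2F letters. It was 0.56 in the 22 without, leaving out Fen1, which had too few counts to be tested.

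As a group, the replication and nucleotide genes were at higher levels in the Sfrp4-/- libraries, but no gene of the group passed the test, and the difference was carried more by the first Sfrp4-/- library than by the second. Of the 45 genes, 44 had enough counts to be tested; Fen1 did not. Of the 44, 39 had a log2 fold change above 0, where 50.5% of the 13737 genes tested did. Their median was 0.46, a fold of 1.38, and that of all genes was 0.004. The genotypes did not overlap in 16 of the 44, all with the Sfrp4-/- libraries on top, a pattern that 15.0% of all genes tested had. The opposite pattern was seen in 0 of 44, against 12.6% of all genes tested. With edgeR's quasi-likelihood test over all genes 0 of 44 passed at an adjusted p under 0.05, as did 0 (0%) of all genes tested. At an unadjusted p under 0.05 there were 3, all higher in Sfrp4-/- (Tk1, Rrm2 and Prim1), where 1.81% of all genes were higher and 0.946% lower; DESeq2 gave 0 and 2 and limma-voom 0 and 3. In bulk RNA, more cycling cells and more of these transcripts per cell cannot be told apart.

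The difference was not even over the libraries. The summed level of the 45 genes was 1068 and 918 CPM in Sfrp4-/- libraries and 679 and 821 CPM in WT libraries, a ratio of 1.32 between the means. Sfrp4-/- replicate 1 held the highest value of 28 of the 44 tested genes and the lowest of 0, while WT replicate 1 held the lowest value of 25. When libraries were set against each other gene by gene, on log2(CPM + 0.25), the median over the 44 genes was 0.70 for Sfrp4-/- replicate 1 over WT replicate 1 and 0.48 over WT replicate 2. For Sfrp4-/- replicate 2 it was 0.34 over WT replicate 1 and 0.035 over WT replicate 2, where the median of all genes was 0.039. Within genotypes it was -0.34 for Sfrp4-/- replicate 2 over replicate 1 and 0.24 for WT replicate 2 over replicate 1. Sfrp4-/- replicate 1 exceeded both WT libraries in 31 of the 44 genes and lay below both in 0, while Sfrp4-/- replicate 2 exceeded both in 19 and lay below both in 6. Without Sfrp4-/- replicate 1 the median log2 fold change of the genes was 0.24, with 32 above and 12 below 0, and 0 had an unadjusted p under 0.05; without WT replicate 1 it was 0.31, with 31 above and 13 below. The heat map of levels by library shows this order.

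**Figure D1:**
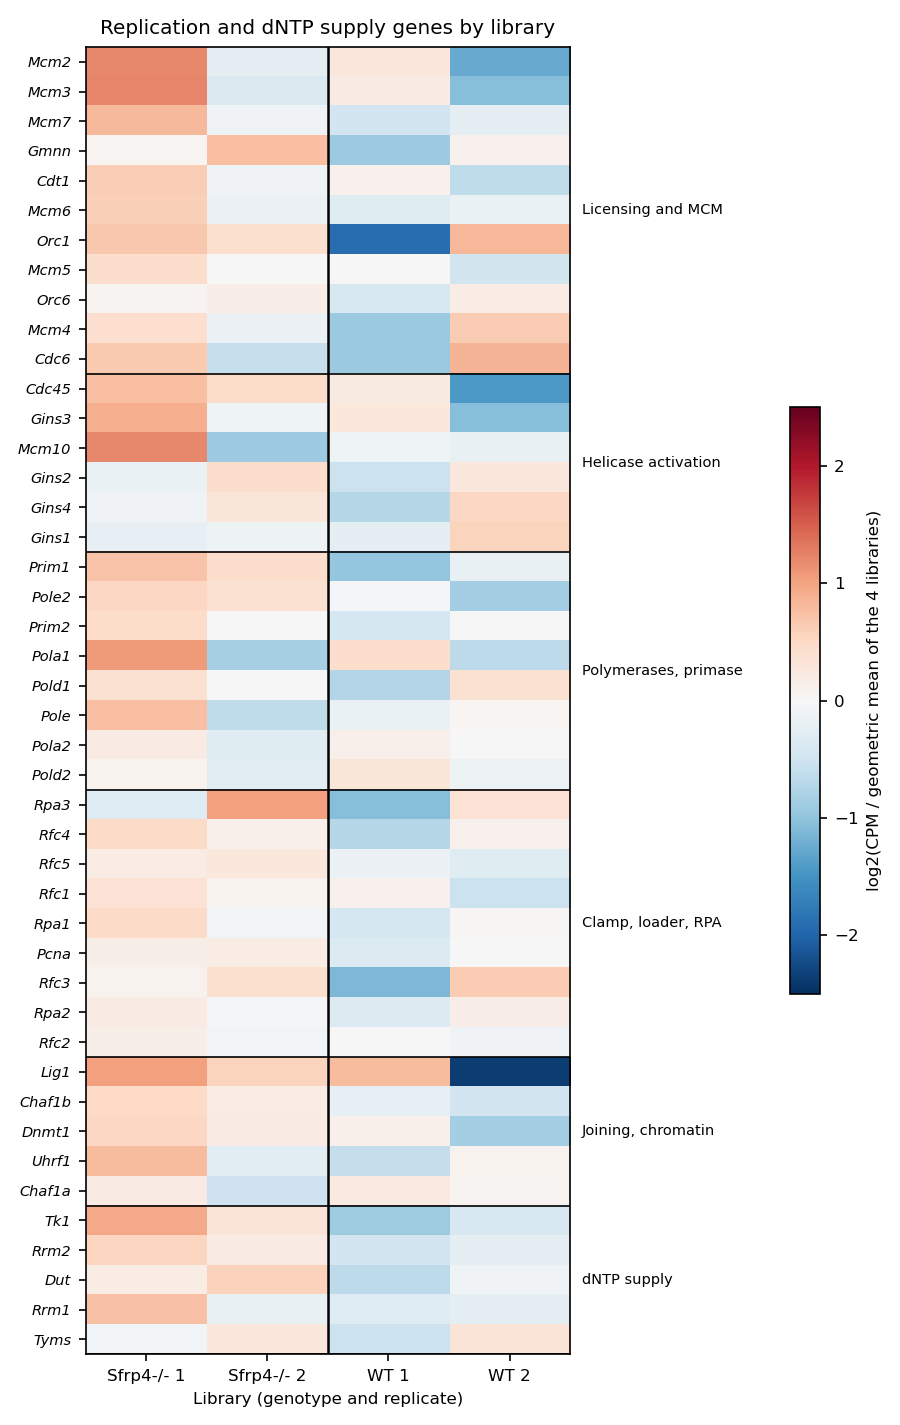
Level of each of the 44 tested genes (rows, grouped by role) in each library (columns, Sfrp4-/- libraries left, WT libraries right), as log2 of CPM over the geometric mean of the 4 libraries. Sfrp4-/- replicate 1 is the reddest column, with the highest value of 28 genes, and WT replicate 1 has the lowest value of 25.

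Genes of deoxynucleotide supply had the highest share of non-overlapping genes of the 6 role groups. In 4 of 5 both Sfrp4-/- libraries lay above both WT libraries (15.0% of all genes tested did), and the median log2 fold change was 0.73. Tk1 encodes the cytosolic thymidine kinase, which salvages thymidine in S phase (ENSMUSG00000025574, chromosome 11, 117815526 to 117826092, mm10). It had 27.4 and 17.8 CPM in Sfrp4-/- libraries, against 7.60 and 10.8 CPM in WT libraries. Its means were 22.6 ± 6.81 and 9.19 ± 2.25 CPM (SD, n = 2 each). Its log2 fold change of 1.29 ± 0.40 (SE) was the highest of the 44 genes, with an edgeR adjusted p of 1.00. Rrm2, the small subunit of ribonucleotide reductase whose level limits the enzyme in cycling cells (ENSMUSG00000020649, chromosome 12, 24708241 to 24714146), had 84.6 and 67.6 CPM in Sfrp4-/- libraries, against 41.8 and 49.3 CPM in WT libraries (log2 fold change 0.74 ± 0.30, SE). Its values did not overlap between genotypes, and the gap was wider than the spread within either. Dut, the dUTPase that keeps uracil out of DNA, had 26.8 and 35.1 CPM in Sfrp4-/- libraries and 15.0 and 22.2 CPM in WT libraries (0.73 ± 0.35). Rrm1, the large subunit of the reductase, had 37.4 and 19.9 CPM in Sfrp4-/- libraries and 18.0 and 19.4 CPM in WT libraries (0.62 ± 0.39). For Rrm1 the second Sfrp4-/- library stood just above the WT range, so the separation rested on the first. Tyms, thymidylate synthase, overlapped, with 30.7 and 38.9 CPM in Sfrp4-/- libraries and 21.9 and 40.2 CPM in WT libraries (0.16 ± 0.37). Without WT replicate 1 its log2 fold change was -0.21, and without Sfrp4-/- replicate 2 it was -0.011.

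Of the 11 genes of origin licensing, including the 6 subunits of the MCM helicase, 10 had a log2 fold change above 0 (median 0.50). The genotypes were separated in 3 (27.3%, against 15.0% of all genes tested). Mcm7 had 56.6 and 30.4 CPM in Sfrp4-/- libraries, against 22.9 and 27.1 CPM in WT libraries (0.80 ± 0.38, SE). Mcm6 had 34.7 and 20.7 CPM in Sfrp4-/- libraries and 18.6 and 20.5 CPM in WT libraries (0.50 ± 0.36). Mcm5 had 25.0 and 18.7 CPM in Sfrp4-/- libraries and 18.6 and 13.5 CPM in WT libraries (0.45 ± 0.36). In Mcm6 and Mcm5 the lower Sfrp4-/- value and the higher WT value nearly met. Mcm2 and Mcm3 had larger fold changes (0.95 ± 0.62 and 0.93 ± 0.61) but overlapped: both libraries of replicate number 1 were above both of number 2, at 23.9 and 8.85 CPM in Sfrp4-/- libraries and 12.7 and 4.37 CPM in WT libraries for Mcm2. Mcm4 had the reverse order within WT, with 14.9 and 10.0 CPM in Sfrp4-/- libraries and 5.87 and 17.3 CPM in WT libraries (0.096 ± 0.53). Summed over the 6 subunits the level was 183 and 98.1 CPM in Sfrp4-/- libraries and 92.6 and 88.4 CPM in WT libraries, so the first Sfrp4-/- library stood apart and the second lay close to WT.

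The loading factors were less regular. Orc6, a subunit of the origin recognition complex, was the most abundant of the group per length (RPKM, CPM divided by gene length in kilobases) and had 30.6 and 32.8 CPM in Sfrp4-/- libraries and 22.2 and 33.1 CPM in WT libraries (0.19 ± 0.33). Cdc6, the ATPase that loads the helicase, had the lowest fold change of the group, with 8.53 and 3.65 CPM in Sfrp4-/- libraries and 2.87 and 9.85 CPM in WT libraries (-0.082 ± 0.67). Both of its Sfrp4-/- values lay between the WT values. Cdt1, the partner of Cdc6 in loading, had 0.53 ± 0.43, and Gmnn, which encodes the Cdt1 inhibitor geminin and is a marker of S and G2 phase, had 0.75 ± 0.47; both overlapped. Orc1, the ATPase subunit of the origin complex, had 37 and 34 counts in Sfrp4-/- libraries and 5 and 38 counts in WT libraries.

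**Figure D2:**
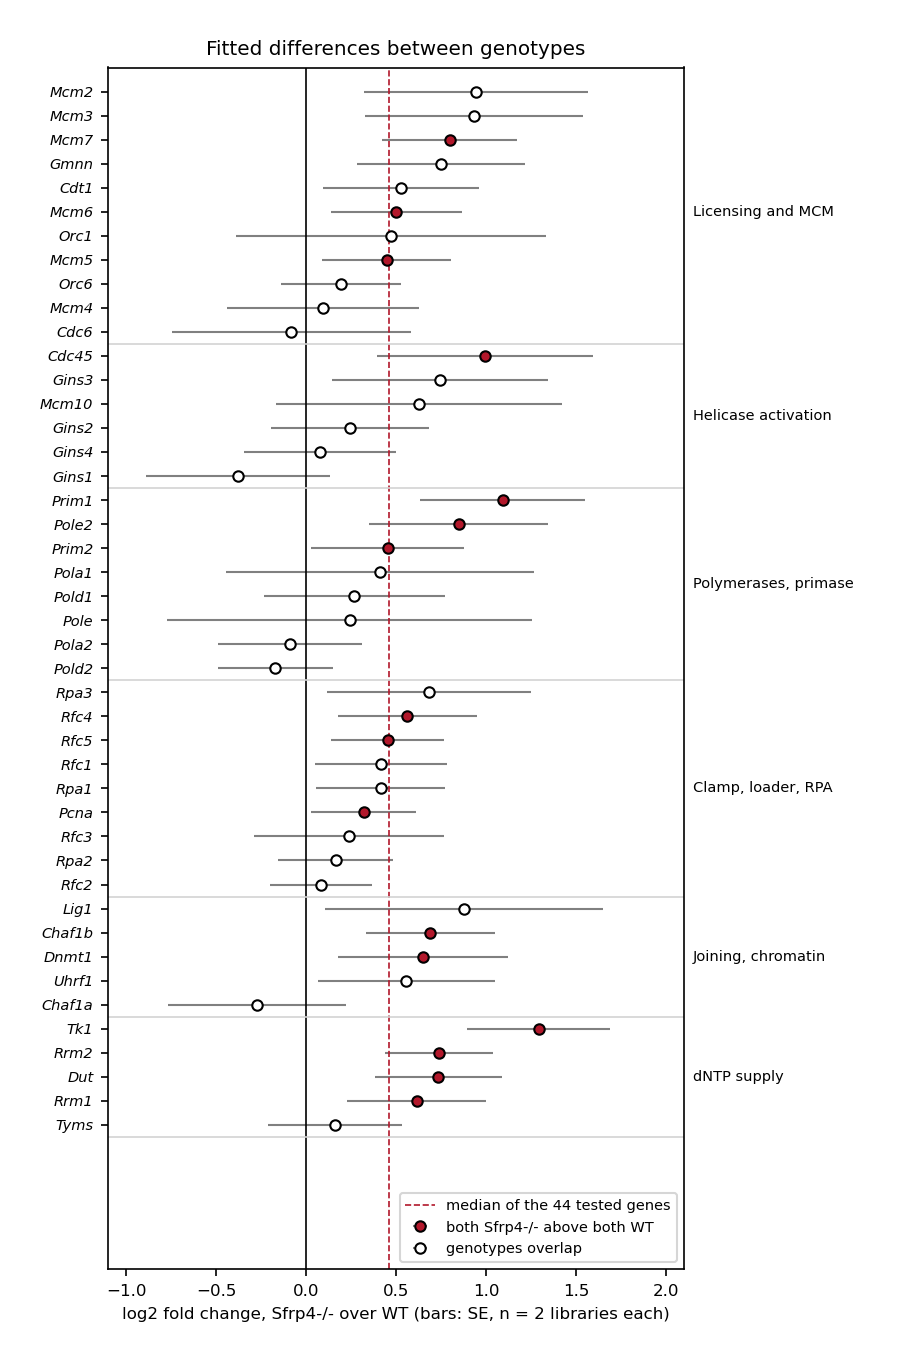
Log2 fold change of the 44 tested genes, Sfrp4-/- over WT, with its standard error (2 libraries each), grouped by role. Filled points are the 16 genes whose Sfrp4-/- libraries both lay above both WT libraries, the dashed line is the median of 0.46, and 5 genes lie below 0.

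Among the genes that activate the helicase, 5 of 6 were above 0 and 1, Cdc45, separated the genotypes. That is a share of 16.7%, close to the 15.0% of all genes tested. Cdc45, which binds the MCM ring together with GINS, had 7.61 and 6.23 CPM in Sfrp4-/- libraries, against 5.34 and 1.69 CPM in WT libraries (0.99 ± 0.60, SE). WT replicate 2 was far below the other libraries for this gene. The GINS subunits did not move together: Gins3 had 0.75 ± 0.60, Gins2 0.24 ± 0.44, Gins4 0.077 ± 0.42 and Gins1 -0.38 ± 0.51, the lowest of all 44 genes. Gins1 had 3.89 and 4.09 CPM in Sfrp4-/- libraries and 3.801 and 6.53 CPM in WT libraries, so a single WT library set its direction. Gins4 was the most abundant gene of all 45 per length, at 38.5 and 50.4 RPKM in Sfrp4-/- libraries and 25.0 and 59.2 RPKM in WT libraries, while the other 3 subunits lay between 0.904 and 4.31 RPKM in all libraries. In the annotation, 0% of the exon bases of Gins4, Gins1 and Gins3 are shared. For Gins2 it is 67.3%, so its level per length depends on how shared reads were counted. Mcm10, which helps to start the fork, had 85 and 22 counts in Sfrp4-/- libraries and 28 and 30 counts in WT libraries.

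Of the 8 polymerase and primase genes, 6 were above 0 (median 0.34). Both primase subunits were among the 3 that separated the genotypes (37.5%, against 15.0% of all genes tested). Prim1, the catalytic subunit of the primase that makes the RNA primers (chromosome 10, 128015168 to 128030037), had 11.4 and 9.34 CPM in Sfrp4-/- libraries, against 3.53 and 6.12 CPM in WT libraries. Its log2 fold change was 1.09 ± 0.46 (SE). Prim2, the regulatory subunit, had 11.4 and 8.37 CPM in Sfrp4-/- libraries and 6.14 and 8.28 CPM in WT libraries (0.45 ± 0.42), with the inner values nearly equal. Pole2, an accessory subunit of the leading-strand polymerase epsilon, had 7.24 and 6.62 CPM in Sfrp4-/- libraries and 4.93 and 2.80 CPM in WT libraries (0.85 ± 0.50). The catalytic subunits were scarce or flat: Pole had 9 to 21 counts in a library, Pola1 had 16 to 57, and Pold1 overlapped at 0.27 ± 0.50. Pold2, the accessory subunit of polymerase delta and the most abundant gene of the group per length (mean 21.4 RPKM), had 42.7 and 33.5 CPM in Sfrp4-/- libraries and 49.3 and 36.6 CPM in WT libraries (-0.17 ± 0.32). Pola2, the accessory subunit of polymerase alpha, was also just below 0 (-0.088 ± 0.40).

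All 9 genes of the clamp, its loader and the single-strand binding protein were above 0 (median 0.41). Genotypes were separated in 3 (33.3%, against 15.0% of all genes tested). Pcna, the sliding clamp, had 88.4 and 91.9 CPM in Sfrp4-/- libraries, against 63.4 and 80.9 CPM in WT libraries. Its means were 90.2 ± 2.51 and 72.2 ± 12.4 CPM (SD, n = 2 each; 0.32 ± 0.29, SE). Rfc5 had 28.0 and 29.5 CPM in Sfrp4-/- libraries and 22.2 and 19.8 CPM in WT libraries (0.45 ± 0.31), with a gap between genotypes wider than the spread within either. Rfc4 had 26.7 and 20.97 CPM in Sfrp4-/- libraries and 11.7 and 20.5 CPM in WT libraries (0.56 ± 0.39). Rfc2 had the lowest fold change of the group, with 77.8 and 67.2 CPM in Sfrp4-/- libraries and 70.5 and 66.3 CPM in WT libraries (0.084 ± 0.28). Rfc1, the large subunit, had 0.42 ± 0.37 and Rfc3 0.24 ± 0.53. The RPA subunits overlapped, at 0.41 ± 0.36 for Rpa1, 0.16 ± 0.32 for Rpa2 and 0.68 ± 0.57 for Rpa3. Rpa3, the smallest subunit, followed the replicate number, with 16.4 and 41.7 CPM in Sfrp4-/- libraries and 9.80 and 26.3 CPM in WT libraries.

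**Figure D3:**
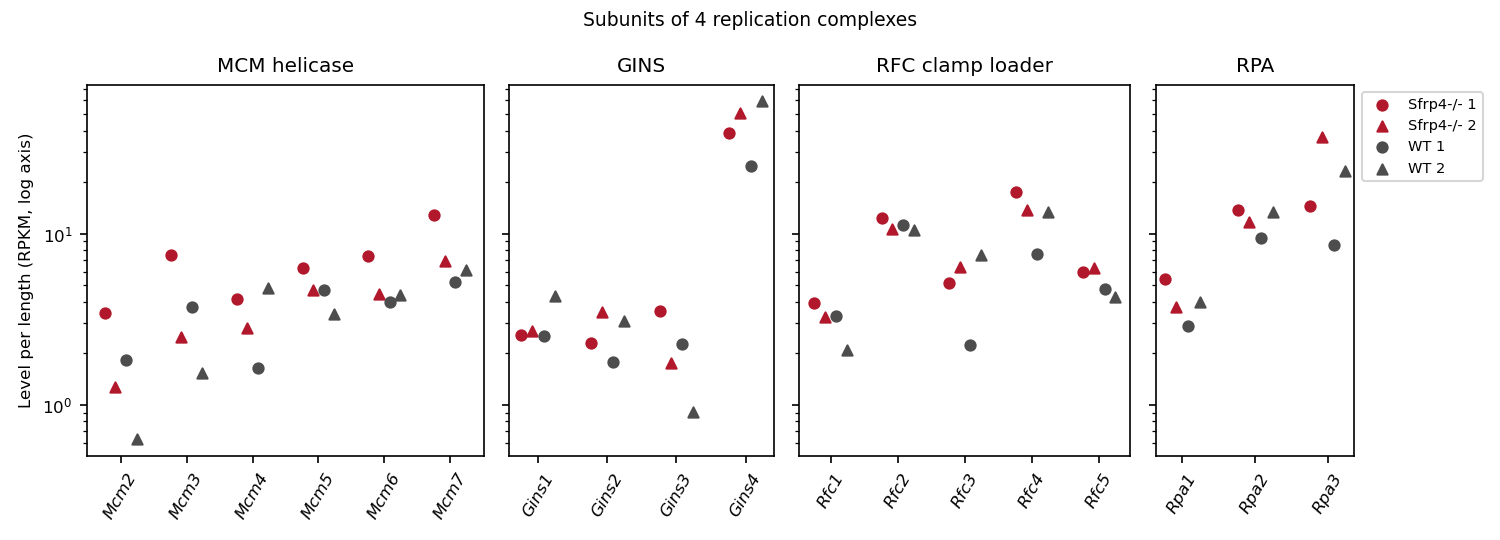
Level per length (RPKM, log axis) of each subunit of the MCM helicase, GINS, the RFC clamp loader and RPA in each library (red: Sfrp4-/-, grey: WT; circles: replicate 1, triangles: replicate 2). Gins4 stands far above the other GINS subunits in all 4 libraries, and Mcm7 is the highest and, in 3 of 4 libraries, Mcm2 the lowest of the MCM subunits.

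Subunits that work in equal numbers were not equally abundant as RNA. Per length, the highest MCM subunit exceeded the lowest by 3.73 and 5.40 times in Sfrp4-/- libraries and by 3.17 and 9.72 times in WT libraries. The RFC subunits spanned 4.41 and 4.21 times in Sfrp4-/- libraries and 5.002 and 6.37 times in WT libraries. In the RPA complex the span was 2.67 and 9.81 times in Sfrp4-/- libraries and 3.27 and 5.83 times in WT libraries. Part of the spread within genotypes moved with gene length. Across the 44 genes the difference of replicate 2 minus replicate 1 had a Spearman rho with gene length of -0.53 in Sfrp4-/- and -0.29 in WT, against -0.16 and -0.28 over all 13737 genes. For the difference of Sfrp4-/- minus WT it was -0.12 over the 44 genes and -0.025 over all genes. With mean CPM in place of length, that difference had a rho of -0.067 over the 44 genes and -0.24 over all genes. Over all genes, lower levels thus tended to go with higher values in Sfrp4-/-. These are descriptions across genes of the same 4 libraries. The part of transcript length in the spread, and that of level in the differences between genotypes, was not tested.

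Of the 6 genes of strand joining, chromatin assembly and methylation, 5 were tested, 4 of them above 0 (median 0.65). Chaf1b, the middle subunit of the histone chaperone CAF-1 and the most abundant of the group per length, had 20.0 and 16.3 CPM in Sfrp4-/- libraries, against 12.3 and 10.3 CPM in WT libraries (0.69 ± 0.36, SE). Its genotypes were separated by more than the spread within either. Chaf1a, the large subunit of the same chaperone, had 5.72 and 3.502 CPM in Sfrp4-/- libraries and 5.87 and 5.25 CPM in WT libraries (-0.27 ± 0.49), and 52.5% of its exon bases are shared with Ubxn6 and other genes. Dnmt1, the maintenance methyltransferase, had 10.7 and 8.66 CPM in Sfrp4-/- libraries and 8.20 and 4.20 CPM in WT libraries (0.65 ± 0.47), and Uhrf1, which brings Dnmt1 to new DNA, had 0.56 ± 0.49 and overlapped. Lig1, the replicative ligase, had 332 and 267 counts in Sfrp4-/- libraries and 229 and 29 counts in WT libraries (0.88 ± 0.77), so its fold change rested on WT replicate 2. Fen1, the flap nuclease of lagging-strand maturation, had 4 and 1 counts in Sfrp4-/- libraries and 3 and 0 counts in WT libraries. The annotation has 84.2% of the exon bases of Fen1 covered by exons of other genes, chiefly Gm10143 on the opposite strand, and libraries without strand cannot separate such reads, so these counts say nothing of its level. Exon sharing above 5% was found for 12 of the 45 genes, Gins2 (67.3%), Rfc2 (15.1%), Rfc4 (12.7%), Mcm7 (12.6%), Orc1 (10.8%) and Rfc5 (10.7%) among them; without the 12 the median log2 fold change was 0.45.

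Beyond the 45 genes, other pathway lists were counted. Over all genes tested, the genotypes did not overlap in 15.0% with Sfrp4-/- on top and in 12.6% with WT on top. Of 40 tested further genes of origins and forks, 31 were above 0 (median 0.34), 14 had non-overlapping genotypes with Sfrp4-/- on top and 1 with WT on top (Rnaseh2a, named after its values were seen). The 3 with the lowest unadjusted p were Dscc1, part of an alternative clamp loader, with 43 and 92 counts in Sfrp4-/- libraries and 12 and 14 counts in WT libraries (2.07 ± 0.73, SE), Top2a and Ticrr. Top2a, the topoisomerase that untangles replicated chromosomes, had 16.8 and 12.6 CPM in Sfrp4-/- libraries, against 6.94 and 7.58 CPM in WT libraries (1.02 ± 0.39). Ticrr, a firing factor, had 17 and 18 counts in Sfrp4-/- libraries and 0 in both WT libraries. On counting error alone, a count of 0 allows 3 counts in the WT group as a whole, and Ticrr was then at least 9.60-fold higher. That bound leaves out the spread between libraries, which was wide at low counts: Exo1 of the same list had 31 and 0 counts in WT libraries. Among 32 other genes of nucleotide synthesis, 15 were above and 17 below 0 (median -0.069), and the genotypes did not overlap in 3 with Sfrp4-/- on top and 4 with WT on top. The lowest unadjusted p among them were those of Dck, the deoxycytidine kinase of salvage (0.75 ± 0.40), Umps (-0.46 ± 0.32) and Cad (-0.51 ± 0.37), enzymes of pyrimidine synthesis. Of 17 E2F family, partner and G1/S genes, 10 were above 0 (median 0.12), and the genotypes did not overlap in 5 with Sfrp4-/- on top and 1 with WT on top. Tfdp2, an E2F partner, had 0.78 ± 0.38, E2f2 1.05 ± 0.53 and E2f4 0.47 ± 0.33. None of these genes passed over all genes (edgeR adjusted p of 1.00 for each).

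Mitosis genes, set beside the replication genes, had larger fold changes. Of 26, 25 were above 0 and 1, Ttk, below (median 1.01), where 50.5% of all genes tested were above 0. In 22 both Sfrp4-/- libraries lay above both WT libraries, a pattern that 15.0% of all genes tested had. The difference between the lists was not tested. Their summed level was 436 and 497 CPM in Sfrp4-/- libraries and 254 and 194 CPM in WT libraries. The second Sfrp4-/- library over the second WT library, where the replication genes had a median of 0.035, had 1.35 for mitosis genes. Birc5 (survivin) had 45.03 and 61.7 CPM in Sfrp4-/- libraries and 19.4 and 22.4 CPM in WT libraries, Ccna2 (cyclin A) 36.6 and 30.4 CPM in Sfrp4-/- libraries and 17.3 and 10.8 CPM in WT libraries, and Nusap1 a log2 fold change of 2.23 ± 0.52 (SE). Mki67, the gene of the Ki-67 antigen, had 7.61 and 6.23 CPM in Sfrp4-/- libraries and 4.74 and 5.13 CPM in WT libraries (0.49 ± 0.45). As with the replication genes, 0 passed the adjusted test. At an unadjusted edgeR p under 0.05 there were 11, all higher in Sfrp4-/-, where 1.81% of all genes were higher and 0.946% lower.

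**Figure D4:**
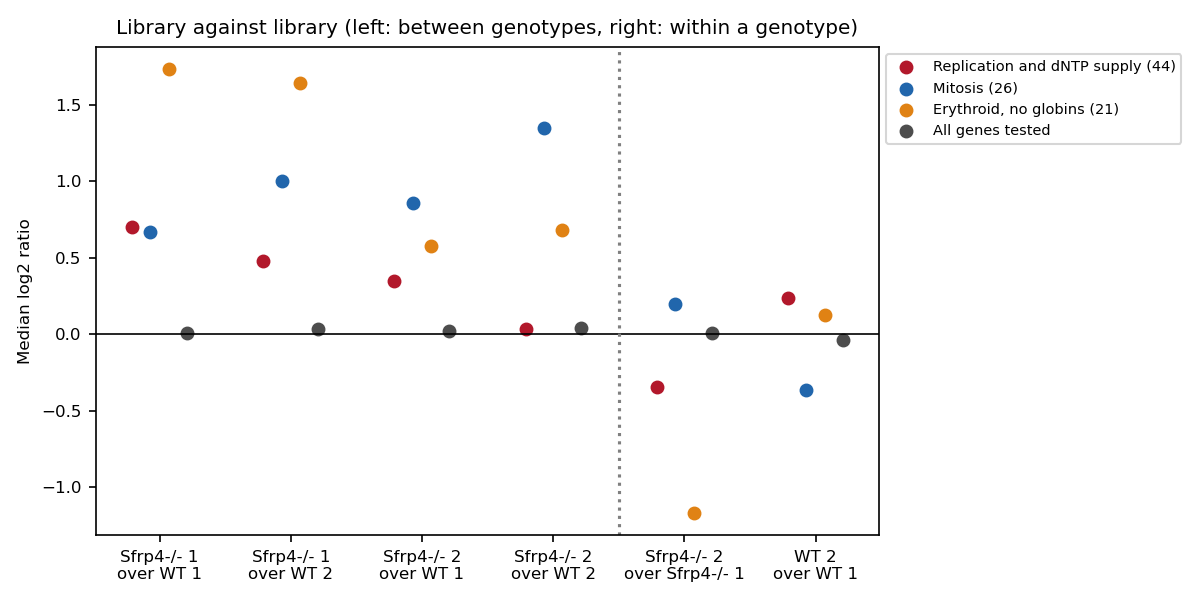
Median log2 ratio between libraries, on log2(CPM + 0.25), for the replication and nucleotide genes, mitosis genes, erythroid genes without globins and all genes tested. The 4 comparisons left of the dotted line set an Sfrp4-/- library over a WT library; the 2 on the right set libraries of a genotype against each other. The replication genes go from 0.70 down to 0.035 between genotypes.

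Markers of red cell precursors, which replicate fast in marrow and spleen, were present in all libraries although Ter119 cells were gated out, and they moved with the replication genes. Of 26 erythroid genes 25 were tested, and all 25 had a log2 fold change above 0 (median 1.29), where 50.5% of all genes tested did. In 12 both Sfrp4-/- libraries lay above both WT libraries, a pattern that 15.0% of all genes tested had. The summed level of the 22 erythroid genes other than globins was 663 and 399 CPM in Sfrp4-/- libraries and 300 and 392 CPM in WT libraries, the same order of libraries as for the summed replication genes. The 4 globins had another order, at 1814 and 2507 CPM in Sfrp4-/- libraries and 655 and 2023 CPM in WT libraries. Klf1, the erythroid master regulator, had 43.7 and 8.61 CPM in Sfrp4-/- libraries and 7.80 and 11.7 CPM in WT libraries. Gata1 had 230 and 46 counts in Sfrp4-/- libraries and 78 and 0 counts in WT libraries, and Epor, the erythropoietin receptor, 161 and 31 counts in Sfrp4-/- libraries and 26 and 0 counts in WT libraries. For all 3 the first Sfrp4-/- library was the highest and the second lay within the WT range in CPM. Alas2, the first enzyme of erythroid heme synthesis, had 101 and 82.6 CPM in Sfrp4-/- libraries and 48.6 and 89.4 CPM in WT libraries (0.41 ± 0.36, SE). The lowest unadjusted p were those of the membrane gene Epb42 (3.01 ± 0.80), Trim10 (1.68 ± 0.47) and the membrane gene Rhag (1.78 ± 0.51).

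Sfrp4-/- replicate 2 and WT replicate 2 were closest in summed erythroid level without globins (399 and 392 CPM), but gene by gene the median log2 ratio of the erythroid genes between them was still 0.68, against 0.035 for the replication genes. Between the same libraries 26 of the 44 replication genes were higher in Sfrp4-/- replicate 2. Sfrp4-/- replicate 2 over Sfrp4-/- replicate 1 had a median log2 ratio of -1.17 in the 21 tested erythroid genes without globins and of -0.34 in the replication genes. Other blood lineages also cycle as precursors. The 12 genes of a list meant for granulocyte and macrophage precursors summed to 966 and 1272 CPM in Sfrp4-/- libraries and to 462 and 877 CPM in WT libraries, with 7 of 12 above 0. Its members split by stage, a grouping made after their values were seen. The 5 genes of early granulocyte precursors were all below 0, with Mpo at -1.09 ± 0.63 (SE), Elane at -0.79 ± 0.61, Ms4a3 at -0.51 ± 0.52, Ctsg at -0.38 ± 0.47 and Prtn3 at -0.35 ± 0.57. Most of the sum came from later granule genes, which were above 0, such as Ngp with 491 and 609 CPM in Sfrp4-/- libraries and 155 and 425 CPM in WT libraries. B lineage genes summed to 43.4 and 60.1 CPM in Sfrp4-/- libraries and to 27.0 and 48.2 CPM in WT libraries, with 5 of 6 tested above 0. Macrophage and osteoclast genes summed to 1998 and 2381 CPM in Sfrp4-/- libraries and to 1704 and 2316 CPM in WT libraries, with 9 of 11 above 0. Acp5, an osteoclast enzyme, made up most of this sum, at 1513 and 1890 CPM in Sfrp4-/- libraries and 1305 and 1866 CPM in WT libraries. The complement genes C1qa, C1qb and C1qc of macrophages, named after their values were seen, each had both Sfrp4-/- libraries above both WT libraries. In all, 4 of the 11 genes had this pattern, against 15.0% of all genes tested. The median log2 fold change of the 11 was 0.23, and Mrc1, another macrophage gene, had the lowest at -1.15. C1qc had 11.3 and 10.7 CPM in Sfrp4-/- libraries and 0.467 and 1.87 CPM in WT libraries (3.19 ± 0.62, SE), and did not pass the adjusted test. Megakaryocyte genes summed to 7.34 and 17.6 CPM in Sfrp4-/- libraries and to 25.0 and 11.02 CPM in WT libraries. Endothelial genes summed to 3.08 and 1.70 CPM in Sfrp4-/- libraries and to 12.8 and 1.69 CPM in WT libraries. The part of erythroid and other blood precursors in the levels of the replication genes was not tested.

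**Figure D5:**
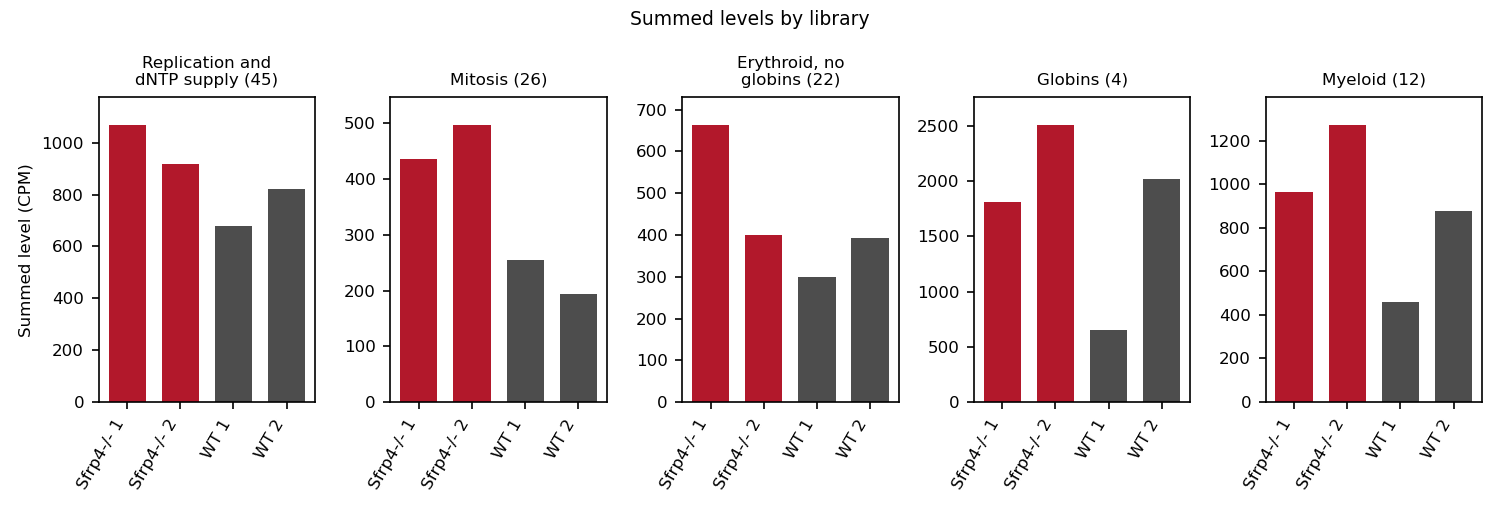
Summed level (CPM) by library of the 45 replication and nucleotide genes, 26 mitosis genes, 22 erythroid genes without globins, 4 globins and 12 granulocyte lineage genes (red: Sfrp4-/-, grey: WT). The replication genes and the erythroid genes without globins are highest in Sfrp4-/- replicate 1 and lowest in WT replicate 1, while mitosis genes are lowest in WT replicate 2.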

How the data were processed

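Sorted periosteal cells were sequenced as non-directional, ultra-low-input SMARTer mRNA libraries, per the labels' protocols. The authors deposited raw counts per gene with gene length; mm10, featureCounts 1.00-p3, HISAT2 2.0.5, DESeq2 1.20.0 and CASAVA are named in the submitters' processing notes. The counting options decide how reads of overlapping genes were treated, and they were not given in the sources used here. Groups and replicate numbers came from the titles and the file's first line. No 2 libraries agreed within counting error (chi-square over its degrees of freedom was 51.7 to 230), and all 4 were kept as replicates. A single count was worth 0.0486 to 0.0667 CPM; floors and counts cover counting error only, as no molecular identifiers are named.

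The main test was edgeR 4.0.16 (R 4.3.3): filterByExpr, TMM factors of 0.989 and 1.19 (Sfrp4-/-) and 0.877 and 0.972 (WT), glmQLFit and glmQLFTest with genotype alone over 13737 genes, two-sided, Benjamini-Hochberg threshold 0.05. The SE of a log2 fold change is its absolute value divided by the square root of its F statistic. RPKM used the deposited gene length. Alternatives were RLE factors, library totals, other filters, DESeq2 1.42.0, limma-voom (limma 3.58.1), edgeR's legacy fit, the replicate block and leaving out each library. Exon overlap came from GENCODE M21; 44 of the 45 genes had the same coordinates there. Genes were named with full values where the genotypes did not overlap and, in each of 6 role groups, for the highest mean RPKM and the lowest fold change; from the fork, nucleotide, E2F, mitosis and erythroid lists the 3 lowest unadjusted p, with a few markers set by name. The other marker lists were given by sums and counts, and genes named from them were chosen after their values were seen. The genes and lists were chosen with earlier results of these data known. Of the list symbols, 1 (Azu1) was not in the table. The values of 1 gene of the erythroid list that the naming rule covers are not reported here. Figures used matplotlib 3.10.9.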

Additional observations from a re-analysis of the deposited data

How the results depend on the processing

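With the 12 alternatives tried, 0 of the 45 genes passed the adjusted test in any fit; the lowest adjusted p of a gene was 0.0501. The median log2 fold change of the genes stayed above 0 in every fit, 0.24 to 0.66 with a library left out and 0.69 with library totals alone, which moved the median of all genes to 0.24 and raised the ratio of summed levels to 1.54. The number of all genes past the test was 0, but 5 with DESeq2, 2 with the replicate block and 0 to 8 with a library left out. Genes at an unadjusted p under 0.05 numbered 378 (248 higher, 130 lower), against 186 with at least 5 CPM in 2 libraries, 1041 with the replicate block and 213 to 1339 with a library left out; library totals alone gave 447 higher and 52 lower. Among the 45 genes that count was 3, against 6 with library totals alone, 10 with the replicate block and 0 to 8 with a library left out (8 without either WT library, 4 without Sfrp4-/- replicate 2, 0 without replicate 1). Genes with Sfrp4-/- above WT in every library numbered 16, and 19 to 31 with a library left out, where separation is easier; RLE factors gave 13 and library totals alone 24. The opposite pattern, seen in 0, was then seen in 8 without WT replicate 1, 6 without Sfrp4-/- replicate 1 and 2 without WT replicate 2. Same-numbered libraries deviated together (correlation 0.256) and were the closest of all pairs (chi-square over degrees of freedom 51.7 for number 1 and 61.1 for number 2, against 133 within Sfrp4-/- and 163 within WT), but 2 pairs do not show that the numbers pair the samples. Of 287 values of 24 named genes, 15 changed sign, none past the test: Cdc6 was 0.08 with library totals alone and 0.006 with limma-voom, and Pold2 was 0.059 with library totals alone. With a library left out the log2 fold changes ran from -0.814 to 1.076 for Cdc6, -0.378 to 0.064 for Pold2, -0.662 to 0.055 for Chaf1a, -0.706 to 0.062 for Gins1, -0.411 to 0.824 for Gins4, -0.06 to 0.505 for Orc6, -0.023 to 0.196 for Rfc2 and -0.206 to 0.657 for Tyms. The cause was not tested. A lone library is assumed there to vary like the other genotype's. Depth limits Orc1, Pole and Pola1, with under 60 counts in every library. Fen1 also had under 60, but 84.2% of its exon bases are shared, so its counts say nothing of its level.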
